A study of Mus musculus with 6 samples.

Results

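The collagens outside the basement membrane and the hemidesmosome were described in cells sorted from the mouse olfactory epithelium. They were chosen by name as every array probe set whose gene symbol is Col, digits, a and digits, without the 6 collagen IV genes and without Col7a1 and Col17a1. The rule found 68 probe sets of 34 genes among 45101 probe sets and 18193 genes on the array, and it used no measured value. Of these, 55 probe sets of 31 genes were bright enough to be tested; Col6a4, Col9a3 and Col10a1 were not. A probe set was bright enough when 3 or more of the 6 arrays read over 16.

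Dissociated olfactory epithelium of CD1 mice was sorted on ICAM1 (CD54), an adhesion protein of horizontal basal cells, which are quiescent stem cells, and of many endothelial and immune cells. ICAM1-positive and ICAM1-negative cells were each collected from 3 litters. Litter 1 was 21, litter 2 was 22 and litter 3 was 24 days old, and effects of age and of litter cannot be told apart. No treatment or genetic change is named in the labels, and each of the 6 sorts holds cells of 1 litter on 1 Affymetrix array. The comparison asks which collagen transcripts distinguish the cells that carry ICAM1. The description field of the labels gives each sample the other sort, but Icam1 itself was at 6817 to 7247 in ICAM1-positive and 13 to 33.2 in ICAM1-negative cells, which follows the titles. Array medians lay between 87.9 and 102.8, and no detection call accompanies the values, so intensities near or under the median of an array carry little information. All 8 horizontal basal cell markers rose in ICAM1-positive cells, but Icam1 is among the 8, and its rise was set by the sort. All 12 monocyte and macrophage markers rose too, and all 9 mature and 8 immature neuron markers measured fell. Each sort thus held transcripts of more than 1 cell type. In such bulk samples a lower share of a cell type and less RNA per cell cannot be told apart.

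Collagens are secreted or membrane-bound proteins whose chains wind into a triple helix. Fibrillar collagens form the banded fibres of connective tissue, fibril-associated collagens (FACIT) decorate them, collagen VI forms beaded filaments, short-chain collagens form lattices, multiplexins carry glycosaminoglycans in the basement membrane zone, and transmembrane collagens stand on the cell surface, from which the outer part can be shed. Epithelial cells usually rest on a collagen IV sheet, and fibres beneath it are made mainly by fibroblasts of the lamina propria.

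Sequences around the transcription start (250 bases before to 50 after) are given for the genes of the 3 transmembrane collagens, which rose together, and for Col6a1 and Col9a2, which fell. They were taken from RefSeq on GRCm38.p6, for 26 of the 34 genes (29 starts); all run 5′ to 3′ on the strand of the gene. Capitals mark 3 promoter elements searched on both strands: the GC box (GGGCGG), the CCAAT box (those letters) and the TATA box (TATAAA); matches may overlap one another. Col23a1 lies at chr11:51289670-51289969 (plus strand), Col13a1 at chr10:61979059-61979358 (minus strand), Col25a1 at chr3:130180595-130180894 (plus strand), Col6a1 at chr10:76725995-76726294 (minus strand) and Col9a2 at chr4:121039316-121039615 (plus strand).
Col23a1: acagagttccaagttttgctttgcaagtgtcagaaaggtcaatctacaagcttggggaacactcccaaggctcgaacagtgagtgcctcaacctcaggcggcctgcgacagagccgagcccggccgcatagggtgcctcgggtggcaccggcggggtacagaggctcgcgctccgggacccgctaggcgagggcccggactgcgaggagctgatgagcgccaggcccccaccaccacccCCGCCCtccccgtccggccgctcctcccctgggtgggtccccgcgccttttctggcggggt
Col13a1: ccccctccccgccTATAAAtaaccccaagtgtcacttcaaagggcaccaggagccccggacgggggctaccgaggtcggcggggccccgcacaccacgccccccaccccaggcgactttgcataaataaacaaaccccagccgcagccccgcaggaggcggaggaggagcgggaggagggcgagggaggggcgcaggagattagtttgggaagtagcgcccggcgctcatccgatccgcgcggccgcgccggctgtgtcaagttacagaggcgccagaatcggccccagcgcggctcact
Col25a1: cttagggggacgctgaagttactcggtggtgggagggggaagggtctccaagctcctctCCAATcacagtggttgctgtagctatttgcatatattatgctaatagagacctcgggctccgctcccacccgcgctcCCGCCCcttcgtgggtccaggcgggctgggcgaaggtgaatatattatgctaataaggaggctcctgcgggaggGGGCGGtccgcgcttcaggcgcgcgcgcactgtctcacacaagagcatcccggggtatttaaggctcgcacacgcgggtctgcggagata
Col6a1: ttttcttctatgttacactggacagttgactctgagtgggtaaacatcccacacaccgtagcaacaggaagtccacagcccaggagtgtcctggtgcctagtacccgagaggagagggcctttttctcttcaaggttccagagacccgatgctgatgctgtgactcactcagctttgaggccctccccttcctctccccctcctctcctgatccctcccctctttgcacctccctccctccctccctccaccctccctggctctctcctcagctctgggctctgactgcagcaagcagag
Col9a2: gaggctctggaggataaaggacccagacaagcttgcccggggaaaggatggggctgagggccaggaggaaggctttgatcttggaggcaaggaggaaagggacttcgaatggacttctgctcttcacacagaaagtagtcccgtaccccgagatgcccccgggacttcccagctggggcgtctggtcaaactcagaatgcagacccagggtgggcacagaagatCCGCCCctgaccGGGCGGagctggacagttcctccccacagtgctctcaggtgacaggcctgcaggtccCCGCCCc
The Col23a1 window held 1 GC box, the Col25a1 window 2 GC boxes and 1 CCAAT box, the Col13a1 window 1 TATA box and the Col9a2 window 3 GC boxes, while none of the 3 elements was in the Col6a1 window. The GC content was 67.7% for Col23a1, 68% for Col13a1, 60% for Col25a1, 57.3% for Col6a1 and 61.7% for Col9a2, against a median of 52.7% over all 32851 windows. A GC box was present in 35.7%, a CCAAT box in 37.4% and a TATA box in 13.6% of all windows, and in 17, 8 and 4 of the 29 collagen windows. None of the 3 elements was thus in all 3 transmembrane collagen windows, though Col23a1 and Col25a1 both had a GC box. A match is a description of letters only.

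Of the 31 collagen genes tested, each taken by its probe set with the highest mean, 10 rose in ICAM1-positive cells, 8 fell and 13 did not pass the threshold (limma, Benjamini-Hochberg adjusted p under 0.05 over 38694 probe sets). Those called made up 58.1% of the collagen genes tested, where 41.4% of 16399 genes were called; the share higher was 32.3% against 20.6%, and the share lower 25.8% against 20.8%. The median log2 difference, ICAM1-positive minus ICAM1-negative, was -0.27 over the collagen genes and -0.06 over all genes. By probe set, 18 collagen probe sets were higher and 11 lower of 55, against 16.9% and 18% of all probe sets. Intensities of both sorts did not overlap for 19 of the 31 genes (61.3%), close to the 57.9% of all genes. All 18 called genes had the same direction in each of the 3 litters. The calls were made on the same values, so this shared direction is a description and not separate support. The call was kept in each of 9 fits that left out a litter or a single array for 7 genes: Col23a1, Col13a1, Col25a1, Col18a1 and Col12a1, which were higher, and Col6a1 and Col9a2, which were lower. In the plot of intensities by array, the transmembrane collagens stand to the right of the array medians in ICAM1-positive cells and to the left in ICAM1-negative cells. The 3 called collagen VI genes do the opposite, while the fibrillar and the fibril-associated collagens each had genes called in both directions.

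**Figure D1:**
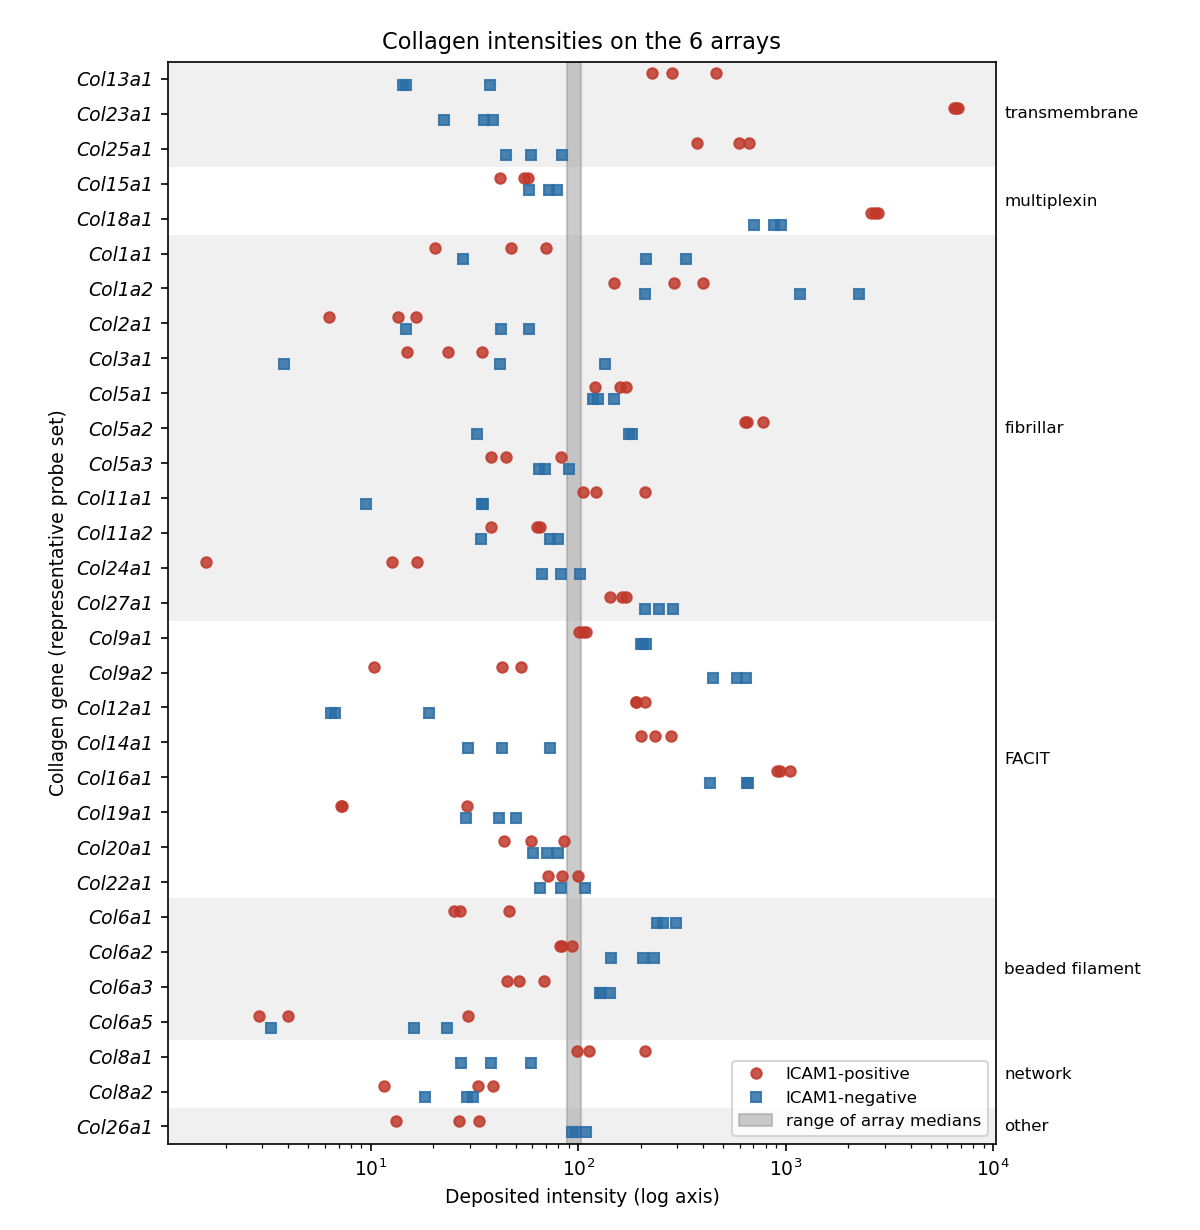
Intensity (log axis) of the 31 collagen genes tested on each of the 3 ICAM1-positive (circles) and 3 ICAM1-negative arrays (squares), by family; the grey bar spans the array medians, 87.9 to 102.8. Col23a1 has the widest gap, and 9 genes lie under the array median on all 6 arrays.

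The transmembrane collagens were higher in ICAM1-positive cells, all 3 of the 3 genes. Col23a1, whose shed outer part is found in the matrix, had intensities of 6515, 6636 and 6803 in ICAM1-positive cells (litters 1, 2 and 3), against 22.5, 35.1 and 38.9 in ICAM1-negative cells. All ICAM1-negative values lay under their array medians, so the fold is given as at least 68.9 (log2 difference 7.73 ± 0.25 SE, limma adjusted p = 0.000124), from those values raised to the median. A second Col23a1 probe set was higher by 4.84 ± 0.35 on the log2 scale. The remaining one read 2321 to 3086 in ICAM1-positive and 3.1 to 5.7 in ICAM1-negative cells, at least 27.9-fold, but it had been kept for testing only through its ICAM1-positive values. Col25a1, first known as the precursor of an amyloid plaque component, had 662.6, 596.1 and 375.1 in ICAM1-positive cells, against 84, 59.1 and 45 in ICAM1-negative cells. The sorts did not overlap, and the rise was at least 5.48-fold (3.12 ± 0.33, limma adjusted p = 0.00107); a second Col25a1 probe set, near the array median in both sorts, did not pass (-0.09, adjusted p = 0.892). Col13a1, a collagen of adhesion sites and of the neuromuscular junction, had 284.3, 463.1 and 226.7 in ICAM1-positive cells, against 14.3, 37.4 and 14.8 in ICAM1-negative cells. All its ICAM1-positive values lay above all ICAM1-negative ones, a rise of at least 3.21-fold (3.96 ± 0.47, limma adjusted p = 0.00162).

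Of the multiplexins, Col18a1 rose and Col15a1 did not pass. Col18a1, which encodes the parent chain of endostatin, had 2592, 2783 and 2700 in ICAM1-positive cells, against 878.9, 704 and 945.2 in ICAM1-negative cells. Both sorts were far above the array median, and means of 2692 ± 95.8 in ICAM1-positive and 842.7 ± 125 in ICAM1-negative cells (SD, n = 3 each) gave a log2 difference of 1.69 ± 0.18 (limma adjusted p = 0.00117), with 2.41 ± 0.23 by its other probe set. Col15a1, a collagen of vessel and muscle surfaces, had 41.9, 54.7 and 57 in ICAM1-positive cells, against 72.7, 78.7 and 58 in ICAM1-negative cells. These values did not overlap, but all lay below the array medians (-0.45, adjusted p = 0.169; 95% interval -0.98 to 0.08).

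The fibrillar collagens were divided: of 11 genes 2 rose, Col5a2 and Col11a1, 2 fell, Col24a1 and Col27a1, and 7 did not pass. Col5a2, a chain of collagen V, which starts collagen I fibrils and limits their width, had 654.6, 781.2 and 638 in ICAM1-positive cells, against 176.2, 180.8 and 32.4 in ICAM1-negative cells. The sorts were separate, and the ICAM1-negative array of litter 3 stood well under the other two (2.77 ± 0.69, limma adjusted p = 0.0259). A second Col5a2 probe set differed by 3.39 ± 0.98 (adjusted p = 0.0412, and 0.0791 with litter as a replicate block). Its call was also lost without a filter on dim probe sets (0.0533) and in 5 of the 9 fits without a litter or an array (0.0862 to 0.117). Without litter 1 or litter 2, or without any 1 of the 3 ICAM1-positive arrays, Col5a2 missed the threshold (adjusted p = 0.0626 to 0.0963).

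Col5a1, the other main chain of collagen V, gave 2 answers. Its brighter probe set had 170.5, 119.9 and 159.2 in ICAM1-positive cells, against 148.8, 124.4 and 117.6 in ICAM1-negative cells. These overlapped (0.19 ± 0.21, adjusted p = 0.535; 95% interval -0.33 to 0.72). The dimmer probe set had 138.7, 190.4 and 100.5 in ICAM1-positive cells, against 40.7, 48.5 and 30.7 in ICAM1-negative cells, which did not overlap (1.82 ± 0.31, limma adjusted p = 0.00611, and 0.0707 without litter 1). Where values under the array median were set to it, this probe set did not pass either (0.52, adjusted p = 0.117). With averaged probe sets Col5a1 passed as higher (1.01, limma adjusted p = 0.00604).

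Col11a1, a chain of the related collagen XI of cartilage, had 121.8, 210.4 and 105 in ICAM1-positive cells, against 34.3, 34.8 and 9.5 in ICAM1-negative cells. The rise of at least 1.44-fold (2.63 ± 0.59, limma adjusted p = 0.0172) rests on ICAM1-positive values close to the array median in litters 1 and 3 and further above it in litter 2. With values under that median set to it, the difference did not pass (0.53, adjusted p = 0.156), nor did it without litter 1 (0.0744), without litter 2 (0.0791) or without the ICAM1-positive array of litter 2 (0.0503). A second Col11a1 probe set, under the array medians on all arrays, was called higher (1.10 ± 0.33, limma adjusted p = 0.0461). It was lost in 7 of the 9 fits without a litter or an array (0.0795 to 0.222). The partner chain gene of Col11a1, Col11a2, had 63.5, 37.9 and 65.8 in ICAM1-positive cells, against 79.8, 34.1 and 73 in ICAM1-negative cells, and did not pass (-0.11, adjusted p = 0.867). Col5a3, a further collagen V chain, had 82.7, 38.2 and 45 in ICAM1-positive cells, against 69.5, 89.9 and 65 in ICAM1-negative cells. Those values overlapped below the array medians (-0.50, adjusted p = 0.304), and a dimmer Col5a3 probe set that was lower (-2.41, adjusted p = 0.00146) was below the medians on all arrays too. With these probe sets averaged Col5a3 passed as lower (-1.46, limma adjusted p = 0.00465).

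Col27a1, a fibrillar collagen of cartilage, had 169.6, 162 and 142.8 in ICAM1-positive cells, against 284.9, 245.3 and 209 in ICAM1-negative cells. The sorts did not overlap, but the fall was small and close to the threshold (-0.63 ± 0.19, limma adjusted p = 0.0495), and 8 of the 9 fits without a litter or an array lost it (adjusted p = 0.0901 to 0.220), the exception being the fit without the ICAM1-negative array of litter 3. It was also lost without a filter on dim probe sets (0.0698) and with averaged probe sets (-0.43, adjusted p = 0.0650). A second Col27a1 probe set did not pass (-0.22, adjusted p = 0.553). Col24a1, a fibrillar collagen of developing bone, had 1.6, 16.8 and 12.6 in ICAM1-positive cells, against 101.9, 67 and 82.4 in ICAM1-negative cells. Its call (-3.57 ± 0.90, limma adjusted p = 0.0266) rests on values under the array median in both sorts, so no fold is given. It was lost with litter as a replicate block (adjusted p = 0.0614), without litter 2 (0.0730) or litter 3 (0.110) and without any single ICAM1-negative array (0.0605 to 0.0767).

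Collagens I and III, the main fibre collagens of connective tissue, did not pass in either direction. Col1a2 had 148.2, 289.4 and 398.4 in ICAM1-positive cells, against 2265, 1171 and 210.6 in ICAM1-negative cells. Col1a1 had 20.4, 69.7 and 47.4 in ICAM1-positive cells, against 212.3, 329.9 and 27.9 in ICAM1-negative cells. In litters 1 and 2 both genes were lower in ICAM1-positive cells, with log2 differences of -3.93 and -2.02 for Col1a2 and of -3.38 and -2.24 for Col1a1. In litter 3 these probe sets, the brightest of each gene, had the opposite sign, 0.92 and 0.76. Over the 3 litters the differences were -1.68 ± 0.92 for Col1a2 (limma adjusted p = 0.217) and -1.62 ± 1.01 for Col1a1 (0.273). Without the ICAM1-negative array of litter 3 both genes passed as lower, Col1a2 by -2.66 (adjusted p = 0.0207) and Col1a1 by -2.70 (0.0258), and Col1a2 also passed without the whole of litter 3 (-2.98, adjusted p = 0.0344). A dimmer Col1a1 probe set was called lower (-3.27 ± 0.86, adjusted p = 0.0307), but not with litter as a replicate block (0.0616), and 6 of the 9 fits without a litter or an array lost it (adjusted p = 0.0720 to 0.172). In litter 3 it was lower too (-2.72). A dimmer Col1a2 probe set did not pass (-1.75, limma adjusted p = 0.123) and had -0.14 in litter 3. The remaining Col1a2 probe set, under the array medians throughout, did not pass either (-0.34) and had 3.09 in litter 3.

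Col3a1, whose protein mixes with collagen I in soft tissue, had 15, 34.5 and 23.6 in ICAM1-positive cells, against 42.1, 134.6 and 3.8 in ICAM1-negative cells (-0.27, adjusted p = 0.894). This probe set also had its lowest value on the ICAM1-negative array of litter 3, and only its 134.6 lay above the array median. A second Col3a1 probe set, under the array medians on all arrays, did not pass either (-0.64, limma adjusted p = 0.0935). It had 19.7, 12.7 and 16.3 in ICAM1-positive cells, against 24.5, 29.8 and 21.1 in ICAM1-negative cells, without overlap. Col3a1 and Col5a2 are neighbouring genes with no protein-coding gene between them, and only Col5a2 passed; the difference between the 2 genes was not tested. The plot by litter sets these genes beside the collagen-binding genes Sparc, which had the same low array, and Dcn, which did not.

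**Figure D2:**
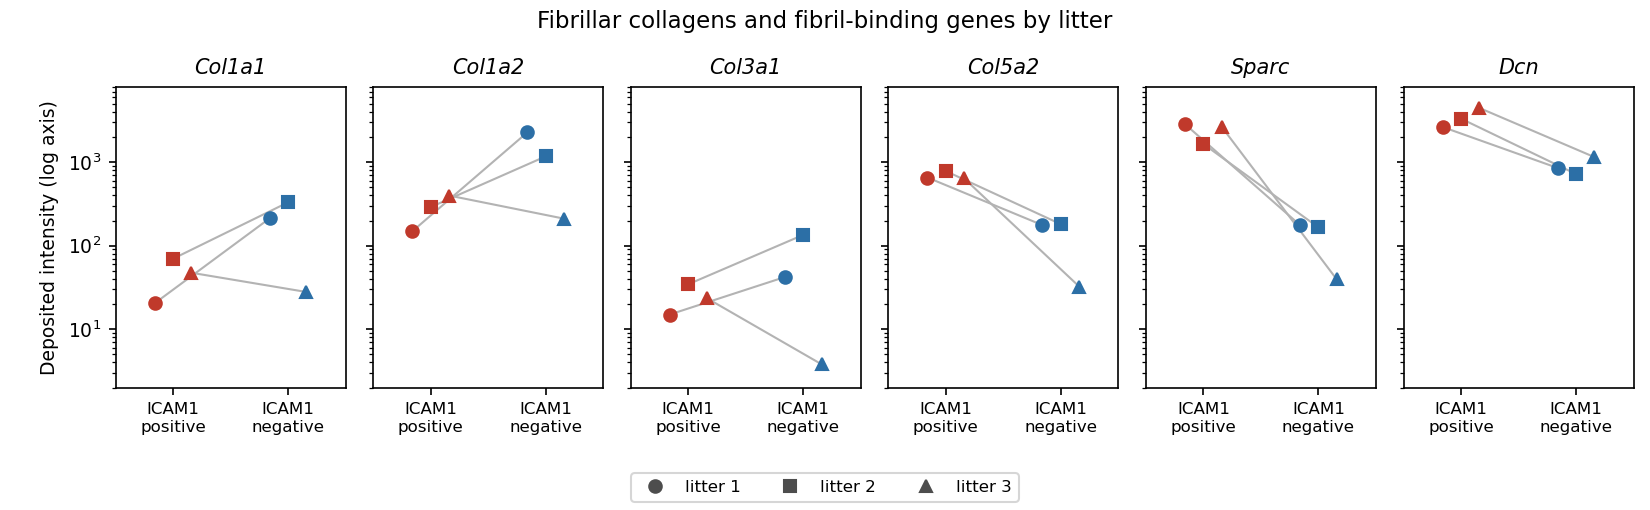
Intensity (log axis) of Col1a1, Col1a2, Col3a1, Col5a2, Sparc and Dcn in ICAM1-positive (left) and ICAM1-negative cells (right), with a line joining the sorts of each litter. On the ICAM1-negative array of litter 3 (triangles) Col1a1, Col1a2, Col3a1, Col5a2 and Sparc had their lowest ICAM1-negative value, 27.9, 210.6, 3.8, 32.4 and 39.4.

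The fibril-associated collagens were also divided, with 3 of 8 genes higher, 2 lower and 3 not past the threshold. Col12a1, which bridges collagen I fibrils in tendon and skin, had 189.4, 209.5 and 189.7 in ICAM1-positive cells, against 19, 6.7 and 6.4 in ICAM1-negative cells. It rose at least 2.03-fold (4.39 ± 0.45, limma adjusted p = 0.000917), and the 3 ICAM1-positive values were close together. The 2 other Col12a1 probe sets tested were below the array medians in both sorts and did not pass (-0.22 and 0.90 on the log2 scale). Col14a1, a close relative with a similar place on fibrils, had 200.3, 235 and 281.2 in ICAM1-positive cells, against 73.3, 29.3 and 42.9 in ICAM1-negative cells. All ICAM1-positive values were above all ICAM1-negative ones, a rise of at least 2.45-fold (2.39 ± 0.37, limma adjusted p = 0.00419, and 0.0631 without litter 3), with 2.72 ± 0.52 by its other tested probe set. Col16a1, a minor collagen of skin and cartilage, had 1055, 905.2 and 936.7 in ICAM1-positive cells, against 649.1, 430.5 and 655.2 in ICAM1-negative cells. The sorts were separate and bright, but the rise was small (0.76 ± 0.23, limma adjusted p = 0.0467) and each of the 9 fits without a litter or an array lost it (adjusted p = 0.0607 to 0.180), as did the fit without a filter on dim probe sets (0.0642).

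Both measured chains of collagen IX, which coats collagen II fibrils in cartilage, were lower in ICAM1-positive cells. Col9a2 had 43, 53 and 10.4 in ICAM1-positive cells, against 643.9, 444.8 and 584.5 in ICAM1-negative cells. The sorts were far apart, with all ICAM1-positive values under the array medians, and the fall was at least 5.71-fold (-4.26 ± 0.64, limma adjusted p = 0.00376). Col9a1 had 105.4, 100.5 and 109.1 in ICAM1-positive cells, against 204.3, 212.9 and 201.5 in ICAM1-negative cells. These values differed little within a sort (-0.97 ± 0.15, limma adjusted p = 0.00457), but the call was lost without litter 1 (adjusted p = 0.0691) or litter 3 (0.0603). A second Col9a1 probe set differed by -0.95 ± 0.30 and did not pass (adjusted p = 0.0576), but did with litter as a replicate block (0.0189). Col9a3, the remaining chain, was not bright enough to be tested. Acan, the main proteoglycan of cartilage, was at 16, 50.4 and 38.6 in ICAM1-positive cells, against 41.4, 50.7 and 60.2 in ICAM1-negative cells (adjusted p = 0.310), and Col2a1, the collagen that collagen IX coats, was at 6.3 to 16.5 in ICAM1-positive and 14.8 to 57.8 in ICAM1-negative cells (-1.56, adjusted p = 0.104; 0.0290 without the ICAM1-negative array of litter 1).

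The remaining fibril-associated collagens were Col19a1, Col20a1 and Col22a1. Col22a1, a collagen of tissue junctions, had 83.9, 71.8 and 99.4 in ICAM1-positive cells, against 65.8, 107.4 and 83 in ICAM1-negative cells (0.01, adjusted p = 0.980; 95% interval -0.61 to 0.63). Col20a1 had 85.8, 44.1 and 59.5 in ICAM1-positive cells, against 79.8, 60.7 and 70.4 in ICAM1-negative cells (-0.20, adjusted p = 0.640). Both overlapped between the sorts, near or under the array medians. Col19a1, the gene next to Col9a1, had 7.3, 7.2 and 29.1 in ICAM1-positive cells, against 50, 41.7 and 28.9 in ICAM1-negative cells (-1.77, adjusted p = 0.0679). It passed as lower without litter 3 (adjusted p = 0.0114) or without the ICAM1-positive array of litter 3 (0.00466), with all its values under the array medians. With all 6 arrays it also passed as lower with averaged probe sets (-1.47, limma adjusted p = 0.00300) and with 32 added to each value (-0.66, 0.0486).

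The 3 classical chains of collagen VI, which join into the beaded filaments around connective tissue cells, all fell in ICAM1-positive cells. Col6a1 had 46.2, 26.9 and 25.2 in ICAM1-positive cells, against 257, 240.6 and 294.6 in ICAM1-negative cells. Each ICAM1-positive value lay under the median of its array, and the fall was at least 2.73-fold (-3.06 ± 0.28, limma adjusted p = 0.000647). Col6a2, the neighbouring gene, had 83.7, 81.5 and 92.9 in ICAM1-positive cells, against 204.8, 144.6 and 231.7 in ICAM1-negative cells. Here too the sorts did not overlap, with a fall of at least 1.97-fold (-1.15 ± 0.23, limma adjusted p = 0.0115), lost without litter 1 (0.117) or litter 3 (0.0884). Since this probe set is of a type (suffix x) that can bind other transcripts, its partner is of use, and it was lower as well (-2.73 ± 0.74, adjusted p = 0.0333), though 7 of the 9 fits without a litter or an array lost it (0.0507 to 0.155). Col6a3, whose chain joins the other two, had 45.4, 68.6 and 52 in ICAM1-positive cells, against 127.1, 141.8 and 128.8 in ICAM1-negative cells. The fall was at least 1.37-fold (-1.28 ± 0.21, limma adjusted p = 0.00553), with the sorts apart, and it was lost without litter 1 (0.0634) or litter 3 (0.0723). Unlike Col1a1 and Col1a2, the collagen VI genes had no low value on the ICAM1-negative array of litter 3. Col6a5, one of the later-found chains, was at 2.9 to 29.4 over the 6 arrays and did not pass (-0.62, adjusted p = 0.714), and Col6a4 was not tested.

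Col8a1, a lattice collagen of vessel walls and of the corneal endothelium, rose, and its partner Col8a2 did not pass. Col8a1 had 112.7, 209 and 98.3 in ICAM1-positive cells, against 38.1, 59.2 and 27.2 in ICAM1-negative cells. The sorts did not overlap, a rise of at least 1.37-fold (1.75 ± 0.41, limma adjusted p = 0.0208), but 1 ICAM1-positive array was itself under its median. The call was lost where values under the median were set to it (0.46, adjusted p = 0.255), without litter 1 (0.120) or litter 3 (0.0813), and without the ICAM1-negative array of litter 1 (0.0602) or litter 3 (0.0564). Col8a2 was at 11.6 to 39 in ICAM1-positive and 18.3 to 31.2 in ICAM1-negative cells (-0.05, adjusted p = 0.951). Col26a1, a collagen described in developing gonads, had 33.1, 13.2 and 26.6 in ICAM1-positive cells, against 98.1, 93.2 and 108.6 in ICAM1-negative cells. It fell (-2.14 ± 0.36, limma adjusted p = 0.00624) from a level near the array median in ICAM1-negative cells, was lost without litter 3 (0.0639), and did not pass where values under the median were set to it (-0.09, adjusted p = 0.816).

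Among the 19 genes with 2 or more tested probe sets, 16 had all of them in the same direction. The exceptions were Col12a1, Col20a1 and Col25a1, in which the probe sets of opposite sign did not pass. Of the 55 probe sets, 3 were bright enough only through the sort in which they were higher (of Col5a3, Col8a1 and Col23a1), and none of these stood for its gene. The 13 probe sets not tested reached at most 68.5 on any array, a value of Col9a3 in ICAM1-negative cells. The plot of all differences shows how far the probe sets of a gene spread.

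**Figure D3:**
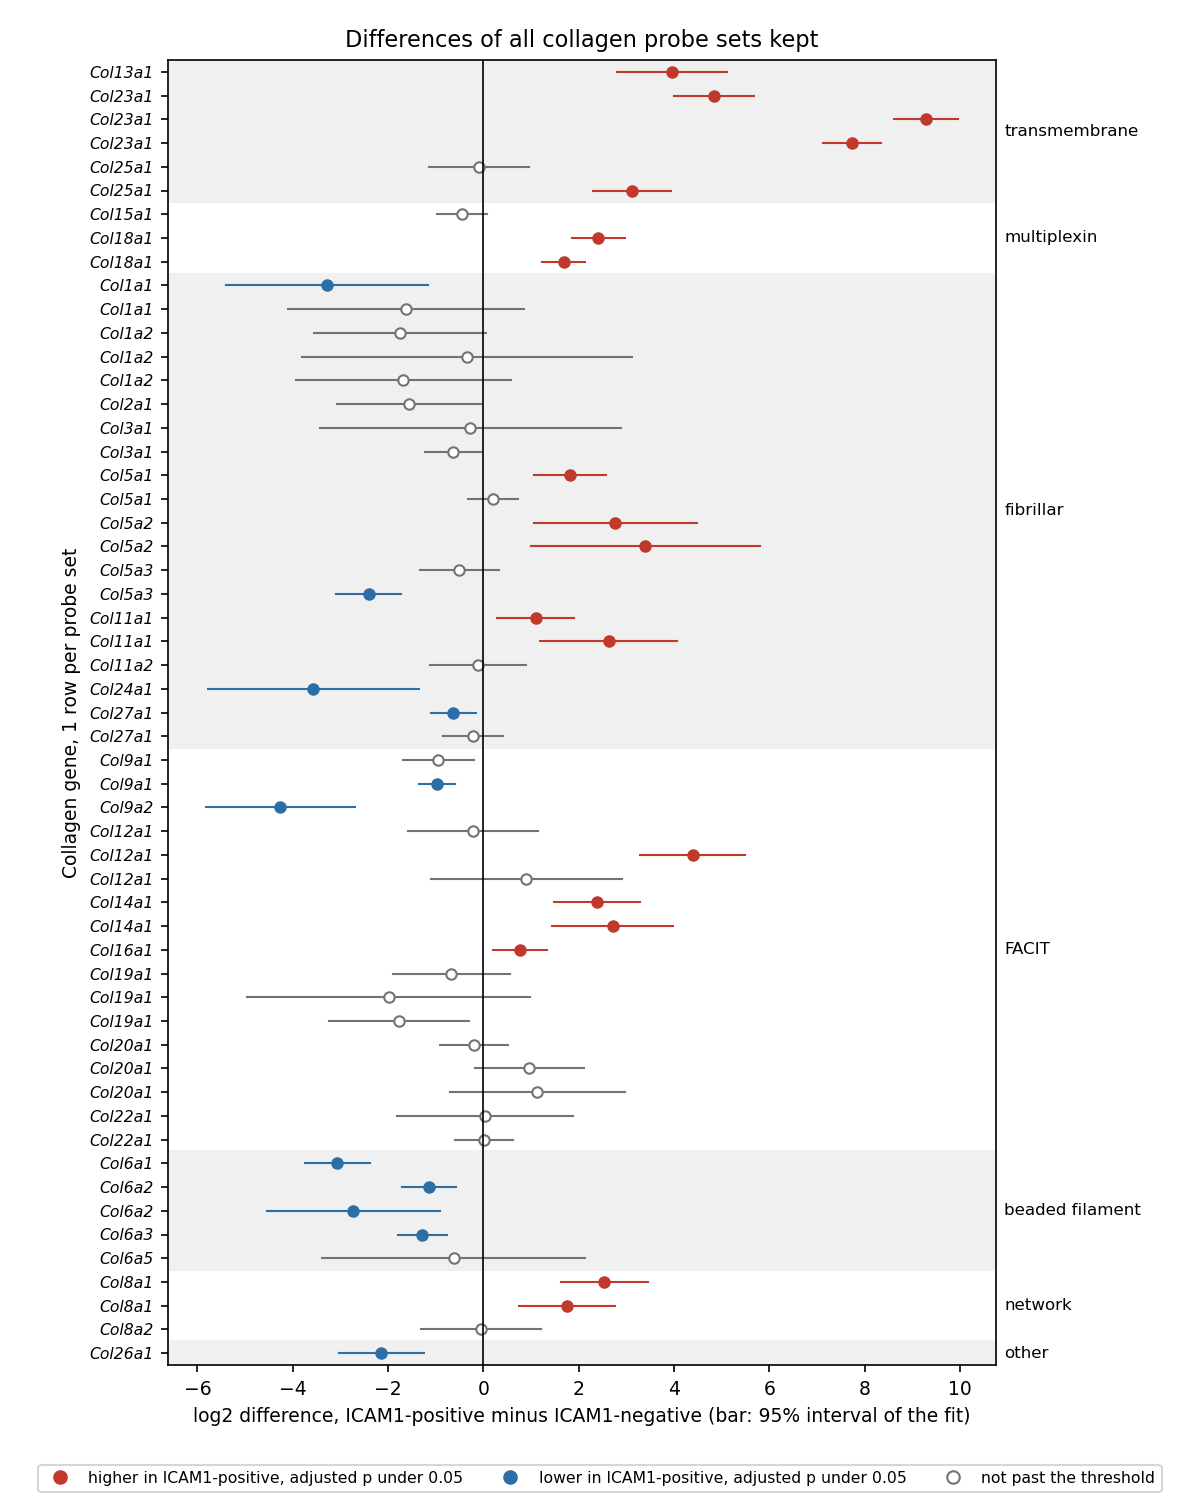
Log2 difference (ICAM1-positive minus ICAM1-negative) of the 55 collagen probe sets tested, with the 95% interval of the limma fit; filled points passed the threshold. The 5 called probe sets of transmembrane collagens all lie right of 0 and the 4 of collagen VI all lie left of it, while fibrillar and FACIT probe sets lie on both sides.

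Among genes that fold, process and bind collagen, more passed as higher than as lower in ICAM1-positive cells. These lists, and the marker lists further below, were chosen with earlier results of these data known. Their counts beside the shares of all genes are thus descriptions and not independent support. Of all genes 20.6% were called higher and 20.8% lower. Of 15 genes of collagen hydroxylation, glycosylation and folding, 9 were higher and 1 lower (median log2 difference 1.39, against -0.06 over all genes). P3h2, a prolyl 3-hydroxylase, had 852, 522 and 761.7 in ICAM1-positive cells, against 49.6, 26 and 38 in ICAM1-negative cells, a rise of at least 7.22-fold (4.25 ± 0.32, limma adjusted p = 0.000365). Serpinh1, the collagen chaperone of the endoplasmic reticulum, averaged 4242 ± 1093 in ICAM1-positive and 292.1 ± 70.9 in ICAM1-negative cells (SD, n = 3 each; 3.85 ± 0.28, limma adjusted p = 0.000336). Crtap, a partner of prolyl 3-hydroxylases, rose by 3.11 ± 0.29, and Plod2, a lysyl hydroxylase that sets the type of crosslink, by 2.15 ± 0.20 (adjusted p = 0.000688 and 0.000680). All 3 prolyl 3-hydroxylase genes on the list rose. P4hb, a subunit of prolyl 4-hydroxylase, rose by 0.94 ± 0.23 (adjusted p = 0.0247), a call that 6 of the 9 fits without a litter or an array lost (0.0532 to 0.160). Mia3, which loads procollagen for export from the endoplasmic reticulum, fell: it had 2140, 2131 and 2025 in ICAM1-positive cells, against 3439, 3733 and 3575 in ICAM1-negative cells (-0.77 ± 0.15, limma adjusted p = 0.0113), a call lost without any 1 litter (0.0565 to 0.117). P4ha2, P4ha3, Colgalt1, Plod3 and Ppib did not pass (adjusted p = 0.0851 to 0.987), but Plod3 did with litter as a replicate block (0.54, adjusted p = 0.0460).

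Of 9 genes of procollagen processing and crosslinking, 6 were higher and 1 lower (median 1.69). Lox, the lysyl oxidase that starts crosslinking, had 2169, 2062 and 2185 in ICAM1-positive cells, against 168.8, 173.2 and 204.5 in ICAM1-negative cells (3.56 ± 0.17, limma adjusted p = 0.000155). Bmp1, the protease that removes the C-propeptide, rose by 1.96 ± 0.25, Pcolce, which enhances that step, by 2.61 ± 0.24 (at least 4.53-fold), and Adamts3, which removes N-propeptides, by 2.36 ± 0.29, the last not where values under the array median were set to it (0.47, adjusted p = 0.0801). The one that fell was Pcolce2, a second enhancer of the C-propeptide step, with 546.7, 819 and 1253 in ICAM1-positive cells, against 12053, 9506 and 13574 in ICAM1-negative cells (-3.81 ± 0.34, limma adjusted p = 0.000608). The paralogs Pcolce and Pcolce2 thus lay on opposite sides, without overlap between the sorts in either. Loxl1, a lysyl oxidase relative, passed (0.62 ± 0.17, adjusted p = 0.0354), but none of the 9 fits without a litter or an array kept its call (0.0635 to 0.189). Loxl4 and Tll1 did not pass (adjusted p = 0.643 and 0.794).

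Of 8 collagen receptor and uptake genes, 4 were higher and none lower (median 1.20); at an unadjusted p under 0.05 no gene was lower either, and with litter as a replicate block 1, Itga10, was lower (adjusted p = 0.0466). Mrc2, an endocytic receptor for collagen, had 1051, 810.6 and 909.9 in ICAM1-positive cells, against 55.4, 103.2 and 69 in ICAM1-negative cells (3.65 ± 0.28, limma adjusted p = 0.000374). Itgb1, the shared beta chain of collagen-binding integrins, rose by 2.20 ± 0.34, but not without litter 3 (adjusted p = 0.0542), and Ddr1, the collagen receptor kinase of epithelia, by 1.67 ± 0.24 (adjusted p = 0.00337). Ddr2, its connective tissue relative, was called higher (1.04 ± 0.20) at 44.8 to 57.5 in ICAM1-positive and 20.9 to 27.9 in ICAM1-negative cells, under the array median throughout. Its call was lost without any 1 litter (adjusted p = 0.0652 to 0.0757), with a variance trend (0.0775) and where values under the median were set to it. The alpha chain genes of collagen-binding integrins on the list, Itga1, Itga2 and Itga10, and the inhibitory receptor gene Lair1 did not pass (adjusted p = 0.166 to 0.695).

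Of 8 collagen-binding proteoglycan and fibril regulator genes, 4 were higher and none lower (median 2.15; at an unadjusted p under 0.05 none was lower either). Fmod, a small proteoglycan that shapes fibrils, had 4973, 6007 and 5704 in ICAM1-positive cells, against 25.8, 35.1 and 35 in ICAM1-negative cells, at least 57.4-fold higher (7.45 ± 0.20, limma adjusted p = 0.000124). Ogn, another of this family, had 5660, 5406 and 4139 in ICAM1-positive cells, against 33.3, 29.8 and 30.5 in ICAM1-negative cells, at least 52-fold higher (7.33 ± 0.19, limma adjusted p = 0.000124). Both were thus bright only in ICAM1-positive cells, in each litter. The probe set used for Fmod, like those for Serpinh1 and Ddr1 above, has the suffix x and can bind other transcripts. Other probe sets of these genes are not given here. Sparc, a collagen-binding matrix protein, had 2848, 1649 and 2637 in ICAM1-positive cells, against 176.3, 165.5 and 39.4 in ICAM1-negative cells (4.47 ± 0.63, limma adjusted p = 0.00306), and Dcn rose by 1.93 ± 0.28. Lum, Prelp, Bgn and Tnxb did not pass (adjusted p = 0.0708 to 0.979). The plot of gene lists sets these beside the collagens, which spread to both sides.

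**Figure D4:**
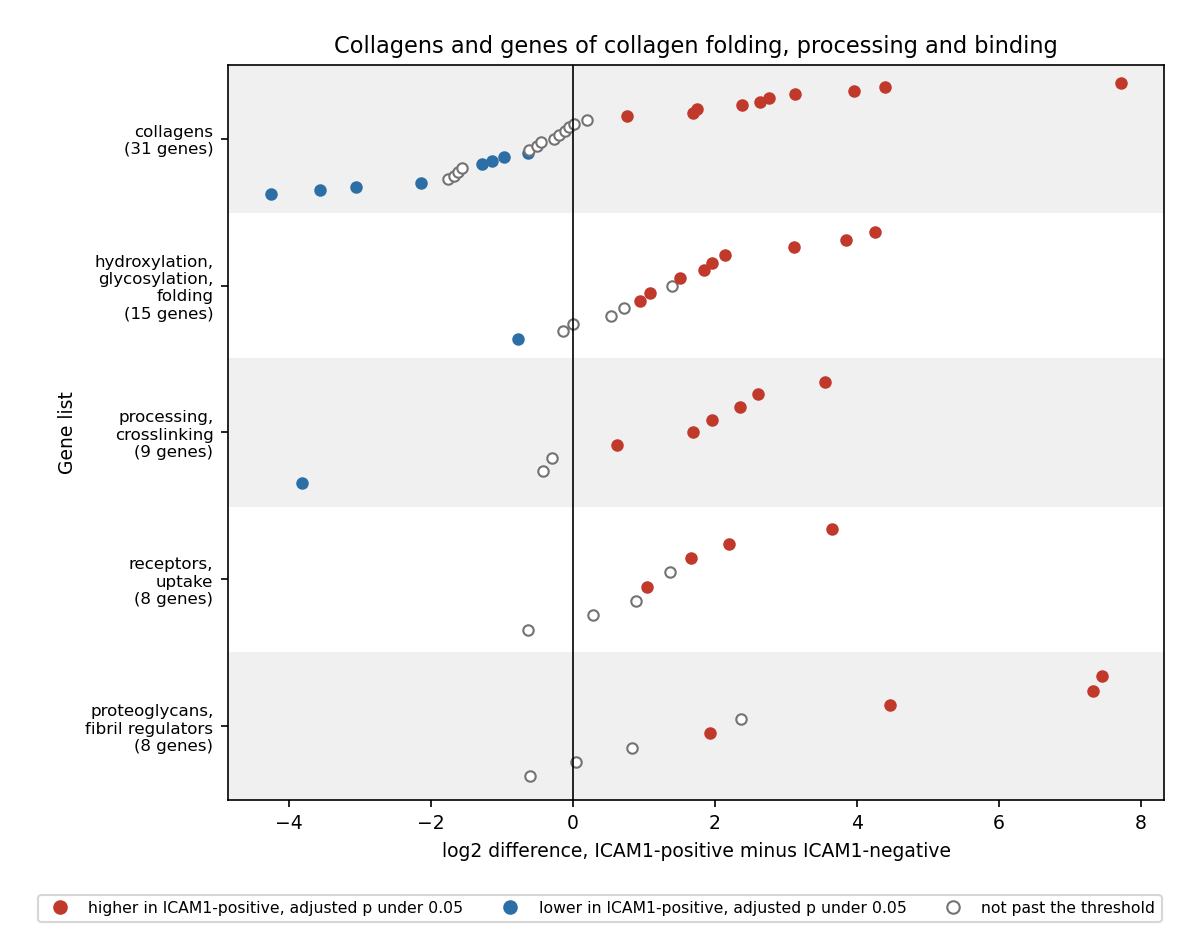
Log2 difference (ICAM1-positive minus ICAM1-negative) of each gene tested among the 31 collagens and 4 lists of collagen-handling genes; filled points passed the threshold. In each of the 4 lists more genes passed as higher than as lower (9 and 1, 6 and 1, 4 and 0, 4 and 0), against 10 and 8 for the collagens. The lists were chosen with earlier results of these data known.

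Markers of cell types that make much collagen were set beside these results. Of 10 fibroblast markers measured, 4 were higher (Fbln2, Fap, Fbln1 and Dcn) and none lower, with a summed intensity of 6670 to 9222 in ICAM1-positive and 1508 to 1971 in ICAM1-negative cells. Of the same list, Lum, Prrx1, Twist2, Thy1 and Mfap5 lay under the array median on all 6 arrays, and Pdgfra had 61.9, 168.6 and 70.6 in ICAM1-positive cells, against 44.6, 16.9 and 5.5 in ICAM1-negative cells (adjusted p = 0.0622). On the ICAM1-negative array of litter 3, low in Col1a1 and Col1a2, Fbln2 (71.5), Pdgfra and Lum (30.2) had their lowest ICAM1-negative values, all under the array median. Dcn (1149), Fap (355.3) and Twist2 (65.4, also under the median) had their highest there, and the other fibroblast markers lay in between. Of 10 cartilage and bone markers, 1 was higher (Alpl), 1 lower (Phex) and 9 under the array median on all arrays, with sums of 633.2 to 728.6 in ICAM1-positive and 508.2 to 564.4 in ICAM1-negative cells. Alpl, with means of 331.6 and 118.3, was the largest part of these sums, while the median log2 difference of the list was -0.35. Cnmd had 3.4, 31.2 and 24 in ICAM1-positive cells, against 92.9, 89.6 and 74.8 in ICAM1-negative cells (-2.64, limma adjusted p = 0.0569). Of 9 pericyte and smooth muscle markers 1 was higher (Tagln), with sums of 3787 to 4619 in ICAM1-positive and 4683 to 5533 in ICAM1-negative cells. Most of these sums came from Rgs5, with means of 3230 and 4346, which did not pass (limma adjusted p = 0.188). Of 8 endothelial markers 1 was higher (Ramp2), with sums of 551.6 to 651 in ICAM1-positive and 451.6 to 508.5 in ICAM1-negative cells. Ramp2 itself had means of 194.8 and 50.8, while the median log2 difference of the list was -0.008. Of 9 glial markers 2 were higher (Ngfr and Erbb3) and 2 lower (Mbp and Frzb), with sums of 2014 to 2469 in ICAM1-positive and 1657 to 2314 in ICAM1-negative cells. Mature neuron markers summed to 4717 to 8321 in ICAM1-positive and 80568 to 88441 in ICAM1-negative cells. Horizontal basal cell markers, Icam1 included, summed to 86667 to 92536 in ICAM1-positive and 699.2 to 1066 in ICAM1-negative cells. Monocyte and macrophage markers summed to 25326 to 30179 in ICAM1-positive and 2465 to 3673 in ICAM1-negative cells. Between 2 sorts, any marker that differs shares its direction with some collagens, so a shared direction does not tie a collagen to a cell type. Of the other lists, 8 of 8 ciliated cell markers (sums of 6930 to 9233 in ICAM1-positive and 23786 to 25379 in ICAM1-negative cells) and 3 of 3 erythroid markers (155 to 243.2 in ICAM1-positive and 649.3 to 2293 in ICAM1-negative cells) fell. Of 8 sustentacular markers 4 rose (Hes1, Ermn, Krt18 and Cbr2) and none fell (59627 to 75596 in ICAM1-positive and 28131 to 48784 in ICAM1-negative cells). Sec14l3, Cyp2g1, Muc2 and Cyp1a2 did not pass, with log2 differences of -0.28, -0.29, -0.42 and -0.69. Of 8 Bowman gland markers 4 rose (Aqp5, Krt7, Sox9 and Bpifa1) and none fell (36116 to 40402 in ICAM1-positive and 13325 to 21245 in ICAM1-negative cells). Bpifa1, with means of 30638.5 and 13942.9, made up most of these sums. Muc5b (0.34), Ltf (-0.63), Obp2a (-2.23) and Dmbt1 (-2.47) did not pass. The part of any of these cell types in the collagen differences was not tested.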

How the data were processed

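RNA of 3 ICAM1-positive and 3 ICAM1-negative sorts was amplified in 2 rounds and hybridised to Affymetrix mouse arrays, per the labels' protocols. The authors deposited linear intensities; the submitters' processing notes name GCRMA, but each array had a mean of 500 once its top and bottom 2% were trimmed, as per-array scaling gives, and background correction is not given in the sources used here. Intensities were taken to log2, 64 control probe sets were left out, and 38694 of 45101 were kept (above 16 on at least 3 arrays; for fits on 4 arrays, on at least 2). Names came from the platform table, and all 68 collagen probe sets matched RefSeq with the same symbol. A gene was its kept probe set with the highest mean. Differences were fitted with limma 3.58.1 in R 4.3.3, without a litter block, adjusted by Benjamini-Hochberg over all kept probe sets at 0.05. Errors beside differences are SE of the fit. "At least" folds raise the dimmer sort to its array medians where all its values lie below them. Titles give the litter number, and the series text says each litter gave both sorts; deviations from the group means correlated at 0.127, 0.199 and 0.0812 within litters and at -0.150 to 0.0330 between. Values on every array are given for called genes and the 8 uncalled genes with the highest mean. Members and lists were chosen with earlier results of these data known. The fit was tested on simulated data with independent normal noise, no litter effect and few probe sets changed. That test therefore does not cover litter effects or the large share of probe sets called here. Alternatives were a litter block, quantile normalization, low intensities raised to the array median, an offset of 32, no or a stricter filter (64), a variance trend, averaged probe sets and leaving out litters or arrays. The number of arrays limits the precision.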

Additional observations from a re-analysis of the deposited data

How the results depend on the processing

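Counts of collagen genes were 9 to 11 higher and 7 to 9 lower in the settings other than raised low intensities, with all arrays, and 12 of the 18 called genes kept their call in every setting with all arrays. With values under the array median set to it, 8 were higher and 6 lower, and lower collagen probe sets numbered 7 against 11. Without 1 litter, where 4 arrays remain, collagen genes numbered 5 to 7 higher and 3 to 6 lower, and without 1 array 7 to 9 and 6 to 9; probe sets numbered 11 to 14 and 6 to 8 without a litter, and 11 to 17 and 7 to 11 without an array. All genes numbered 2014 to 2644 higher and 1819 to 2539 lower without a litter, and 2522 to 3076 and 2582 to 3016 without an array (3375 and 3416 with all); all probe sets numbered 3810 to 5174 and 3718 to 5011, and 4586 to 5959 and 5042 to 6107 (6528 and 6984). With litter as a replicate block, collagen genes numbered 10 higher and 7 lower, and receptor genes numbered 1 lower against 0; the block ended the calls of Col24a1, of the dimmer Col1a1 probe set and of a Col5a2 probe set, and no other collagen call. Without a litter, folding genes numbered 6 to 10 higher and 0 lower (9 and 1), processing genes 4 to 5 higher (6) and receptor genes 2 to 3 (4). Signs turned only for genes that did not pass: Col20a1 with averaged probe sets (0.63), Col22a1 with values under the median set to it (-0.054), Col8a2 with the offset (0.017), and, over the fits that leave out a litter or an array, Col6a5 (-1.48 to 0.57, in the 5 of 9 fits whose filter kept it), Col20a1 (-0.45 to 0.032), Col22a1 (-0.16 to 0.31), Col3a1 (-1.73 to 0.86), Col11a2 (-0.50 to 0.15) and Col8a2 (-0.38 to 0.49). Causes were not tested.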
